A study of Mus musculus with 20 samples.

Results

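The 10 genes described here encode chaperones and folding helpers of the endoplasmic reticulum (ER), together with Xbp1, a transcription factor of the unfolded protein response (UPR). They are Hspa5, Hsp90b1, Hyou1, Calr, Pdia4, Creld2, Dnajb9, Sdf2l1, Manf and Xbp1, chosen by gene name, and each name matched 1 row among the 38924 genes measured in mouse liver. The 10 genes were selected on earlier results of these same libraries, across all 4 groups. Their levels, fold changes and group overlaps are therefore given as a description, without a test.

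Liver mRNA was sequenced from 20 male mice after 12 weeks on diet, with 5 mice per group. Control chow was fed to C57BL/6J wild type mice (NDWT) and to mice of a TSP-1 knockout line (NDKO). The same genotypes were fed CDAHFD (HFWT and HFKO), a diet used as a model of steatohepatitis with fibrosis. CDAHFD is high in fat, without choline and limited in methionine, and its protein is replaced by L-amino acids. The mice were bought at 5 weeks of age, no other allele or agent is named, and the knockout is a constitutive one of Thbs1, the gene of thrombospondin-1, so it is not limited to a cell type. WT mice were not stated to be littermates of the knockouts. The tissue was whole liver, from the right medial lobe by the series description and the right lateral lobe by the paper.

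The ER folds, glycosylates and oxidizes secreted and membrane proteins, which the hepatocyte makes in large amounts. When unfolded proteins accumulate, the chaperone BiP (Hspa5) leaves the sensors IRE1 (Ern1), PERK (Eif2ak3) and ATF6, and these start the UPR. IRE1 splices Xbp1 mRNA, spliced XBP1 and cleaved ATF6 raise transcription of chaperones and of ER-associated degradation genes, and PERK slows translation while ATF4 is made. In liver, XBP1 is known for its part in secretory capacity and lipid synthesis.

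A promoter element named the ER stress response element (ERSE) is the textbook link between ATF6 or XBP1 and the chaperone genes, and it is shown here because it was found in promoters of 4 of the described genes and of several pathway genes that were called lower in NDKO. It was searched as CCAAT, 9 bases and CCACG on both strands, in RefSeq windows (GRCm38.p6) from 250 bases before to 50 bases after each annotated start, a search chosen after the values were seen. Windows were found for 8 of the 10 genes, all but Hyou1 and Manf. In the following stretches, which run 5′ to 3′ on the strand of the gene, capitals mark the whole element.
Hspa5: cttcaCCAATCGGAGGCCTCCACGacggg
Hsp90b1, far element: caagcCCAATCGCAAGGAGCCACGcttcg
Hsp90b1, near element: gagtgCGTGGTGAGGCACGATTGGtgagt
Calr: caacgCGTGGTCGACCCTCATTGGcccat
Creld2: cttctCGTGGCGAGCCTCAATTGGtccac
The stretch of Hspa5 lies at chr2:34772020-34772048 on the plus strand, with 46 bases between the element and the RefSeq start, and inside the exon that GENCODE M21 starts further upstream. The stretches of Hsp90b1 lie at chr10:86705633-86705661 and chr10:86705528-86705556 on the minus strand, 193 and 88 bases before the start. Those of Calr (chr8:84847070-84847098, minus strand, 143 bases before the start) and Creld2 (chr15:88819515-88819543, plus strand, 107 bases) hold the element on the opposite strand, as does the near element of Hsp90b1. All but that of Hspa5 lie between annotated genes. In all, 39 of 32851 windows (0.119%) and 37 of 27025 genes (0.137%) held the element. A second element, ERSE-II (ATTGG, 1 base, CCACG), was found in 12 windows (0.0365%) and the UPR element TGACGTGG in 222 (0.676%), both strands included, and neither was found in the windows of the described genes. A match is a run of letters and was not shown to be bound, and a missing match says only that these letters are not in the window.

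**Figure D1:**
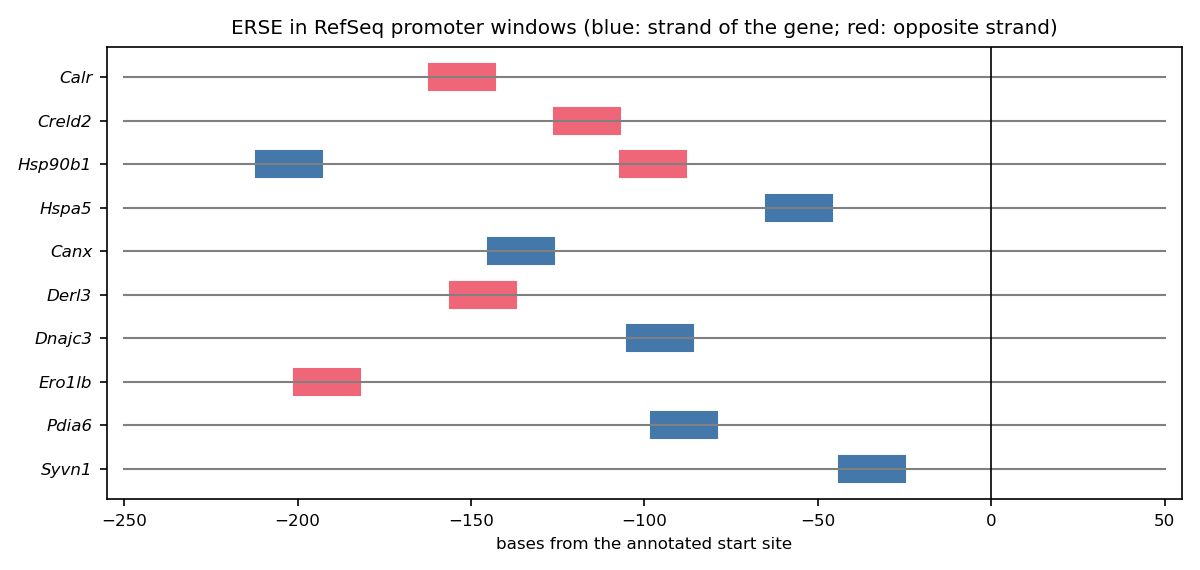
Position of each ERSE in the RefSeq promoter windows, in bases from the annotated start site (0), for 4 described genes (Calr, Creld2, Hsp90b1, Hspa5) and 6 pathway genes. Blue boxes lie on the strand of the gene and red boxes on the opposite strand, and the elements lie 25 (Syvn1) to 193 (Hsp90b1) bases before the start.

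Values are fragments scaled by gene length and by the fragments assigned to genes (FPKM), a level per length, and libraries held 15641548 to 23276329 assigned fragments. Thbs1, the targeted gene, went against the labels on the control diet, with 0.0580 to 0.326 FPKM in NDWT and 0.986 to 1.90 in NDKO. On CDAHFD it was 3.46 to 6.10 FPKM in HFWT and 3.05 to 4.40 in HFKO. The table gives 1 value per gene, not per exon. Groups are therefore called as the libraries were labelled, and each direction between genotypes below rests on those labels. Albumin stood at 16870 to 34843 FPKM in every library. In whole tissue, fewer cells of a type and less RNA per cell cannot be told apart.

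Every described gene was well expressed. BiP (Hspa5, ENSMUSG00000026864.7, GRCm38 chromosome 2, 34771970 to 34776531, 9 exons in Hspa5-201), the main ER chaperone of the HSP70 family, had the highest mean over the 20 libraries at 254 FPKM, above 98.5% of the 14524 genes tested. Calreticulin (Calr, 188 FPKM), Grp94 (Hsp90b1, 124 FPKM) and Pdia4 (91.6 FPKM) followed. Xbp1 stood at 56.8 FPKM and the other 5 genes at 26.6 (Sdf2l1) to 35.9 (Creld2). The thinnest value rested on 100 fragments, Sdf2l1 in an NDKO library, so counting error is small beside the spread between mice. From the lowest to the highest of the 20 libraries the level ranged 16.6-fold for Sdf2l1, 9.81-fold for Creld2 and 2.66-fold for Xbp1.

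**Figure D2:**
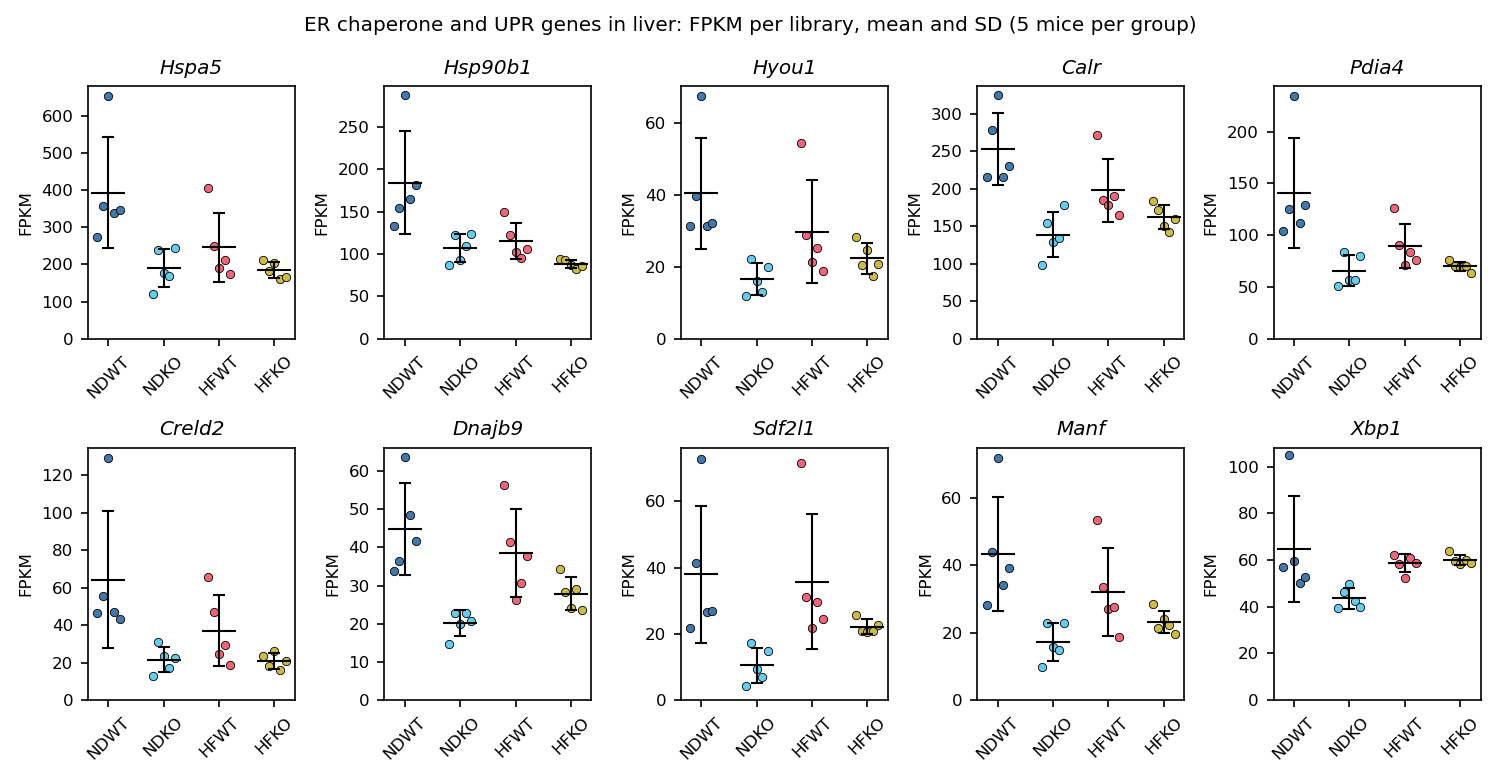
FPKM of each described gene in every library, with 1 point per mouse, the group mean (long bar) and the SD (error bars, 5 mice per group). In all 10 panels the 5 NDKO points lie below the 5 NDWT points, and single NDWT and HFWT libraries lie far above their groups.

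On the control diet, libraries labelled TSP-1 null held less mRNA of all 10 genes than libraries labelled WT, with no overlap between the groups for any of them. Levels in NDKO were 27.8% (Sdf2l1) to 67.1% (Xbp1) of the NDWT mean. Across all 14524 genes tested, NDKO lay entirely below NDWT for 6.69%, and 61.4% had a negative log2FC. By the DEG rule of the study (limma FDR under 0.05 and an absolute log2FC above 0.58) 9 of the 10 were lower and 0 higher, where 3.03% of all genes tested were called lower and 1.74% higher. The exception was Xbp1, whose log2FC of −0.52 was short of the fold limit. Since this comparison was among those the genes were selected on, nothing is read from these counts. The thresholds are those of the paper, but the shares of all genes, here and below, come from this fit to unscaled FPKM. They differ from the paper's counts. On the control diet the paper reported more genes higher than lower in the knockouts, the reverse of the shares here.

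Among the chaperones, Hspa5 was 273, 358, 655, 340 and 347 FPKM in the 5 NDWT livers and 119, 238, 178, 170 and 244 in the NDKO livers. The highest NDKO liver thus lay below the lowest NDWT liver by a small margin, while NDWT replicate 3 stood far above its group. On log2(FPKM + 0.1) the difference was −1.04 ± 0.24 (SE), a level 2.05 times lower. Hsp90b1 (ENSMUSG00000020048.7, chromosome 10, 86690209 to 86705509, 18 exons), which encodes the ER paralog of HSP90, had 133, 154, 288, 165 and 181 FPKM in NDWT and 87.3, 122, 93.2, 109 and 124 in NDKO. Replicate 3 was again the highest NDWT liver, and the log2FC of −0.74 ± 0.16 was the smallest among the genes that met the DEG rule. Its gene overlaps Gm15344 on the same strand and shares 337 sequences of 31 bases with the pseudogene 1810014B01Rik, which stayed at or below 2.17 FPKM.

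Hyou1 (ENSMUSG00000032115.7, chromosome 9, 44379490 to 44392369, 26 exons) encodes Grp170, a nucleotide exchange factor of BiP. It was 31.4, 39.8, 67.5, 31.4 and 32.1 FPKM in NDWT against 11.8, 22.1, 16.1, 13.0 and 19.9 in NDKO, so the gap between the groups was 22.1 to 31.4. The log2FC was −1.25 ± 0.26. Calr (ENSMUSG00000003814.8, chromosome 8, 84841850 to 84846934, 9 exons), a calcium-binding lectin chaperone for glycoproteins, was 216, 279, 326, 216 and 230 FPKM in NDWT and 97.7, 155, 129, 134 and 178 in NDKO. Here the groups were more even and NDWT replicate 3 stood out less, with a log2FC of −0.88 ± 0.15.

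The disulfide isomerase Pdia4 (ENSMUSG00000025823.8, chromosome 6, 47796142 to 47813512, 10 exons) was 104, 125, 235, 112 and 129 FPKM in NDWT and 51.0, 84.0, 56.7, 57.0 and 80.0 in NDKO. Its difference, −1.06 ± 0.19, was close to that of Hspa5. Creld2 (ENSMUSG00000023272.3, chromosome 15, 88819646 to 88826681, 10 exons), an ER protein with disulfide isomerase activity, was 46.5, 55.7, 129, 47.1 and 43.1 FPKM in NDWT and 13.1, 30.9, 23.7, 17.3 and 22.4 in NDKO. In replicate 3 its level was more than that of any pair of the other NDWT livers added up, and the log2FC of −1.5 ± 0.32 became −1.21 without that liver.

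Dnajb9 (ENSMUSG00000014905.3, chromosome 12, 44205897 to 44210068, 3 exons) encodes ERdj4, a J protein that serves BiP and restrains IRE1. It was 33.7, 36.3, 63.7, 48.6 and 41.7 FPKM in NDWT and 14.7, 22.8, 19.8, 22.9 and 20.8 in NDKO, and the groups did not come near each other, with a log2FC of −1.12 ± 0.19. Sdf2l1 (ENSMUSG00000022769.7, chromosome 16, 17130138 to 17132383, 3 exons), a partner of ER J proteins, showed the largest difference of the 10 genes. Its 21.8, 41.4, 72.8, 26.7 and 26.9 FPKM in NDWT compared with 4.37, 17.1, 9.32, 7.06 and 14.9 in NDKO, a log2FC of −1.85 ± 0.36 or 3.62 times lower. Both groups were wide, with SDs of 54.9% and 50.5% of their means.

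Manf (ENSMUSG00000032575.10, chromosome 9, 106838312 to 106891979, 4 exons in Manf-202), an ER protein that is secreted under ER stress, was 28.2, 44.1, 71.9, 34.2 and 39.3 FPKM in NDWT and 9.71, 23.0, 15.8, 14.9 and 22.8 in NDKO. The log2FC was −1.32 ± 0.27, and the row spans Rbm15b on the same strand and Dcaf1 on the other. Manf shares 119 sequences of 31 bases with Dcaf1 (at most 4.91 FPKM) and 136 with the antisense gene 4930524O07Rik (at most 0.706 FPKM). Xbp1 (ENSMUSG00000020484.12, chromosome 11, 5520659 to 5525893, 5 exons) differed least, with 57.2, 105, 59.6, 50.1 and 52.6 FPKM in NDWT and 39.6, 46.4, 49.8, 42.3 and 39.8 in NDKO. The groups only just missed each other, at 49.8 and 50.1 FPKM. Without NDWT replicate 2, the liver with 105 FPKM, its log2FC of −0.52 ± 0.14 became −0.33. A value per gene does not separate spliced from unspliced Xbp1 mRNA.

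Left-out livers moved the number of described genes that met the rule on the control diet from 8 (without NDWT replicate 3, which took out Hsp90b1) to 10 (without NDWT replicate 4 or 5). The median log2FC of the 10 genes was −1.09, against −0.07 over all genes tested, and −0.92 without NDWT replicate 3. Under median of ratios scaling and under quantile normalization 9 of the 10 met the rule and none was higher. Over all genes tested these scalings moved the calls from 253 higher and 440 lower to 350 and 328, and to 246 and 236.

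On CDAHFD the difference between the labels had the same sign for 9 genes but was smaller, and the groups overlapped for all but Hsp90b1. That negative sign was shared by 70.6% of all genes tested. By limma 0 of the 10 met the DEG rule, where 0.330% of all genes tested were called lower and 0.165% higher. Hspa5 was 407, 249, 191, 211 and 174 FPKM in HFWT and 212, 182, 203, 161 and 167 in HFKO, a log2FC of −0.35 ± 0.24. Of the HFKO livers 3 sat inside the lower part of the HFWT range and 2, at 161 and 167 FPKM, lay below it, and HFWT replicate 1 was far above the rest. For Hsp90b1, 149, 122, 102, 95.4 and 106 FPKM in HFWT compared with 94.2, 92.7, 87.3, 82.7 and 85.8 in HFKO, a log2FC of −0.36 ± 0.16 without overlap, as was the case for 4.13% of all genes tested.

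Creld2 had the largest difference on this diet, with 65.5, 47.0, 24.6, 29.6 and 18.7 FPKM in HFWT and 23.3, 18.0, 26.4, 16 and 20.7 in HFKO (log2FC −0.70 ± 0.32). Without HFWT replicate 1 it was −0.46. Sdf2l1 was 71.5, 31.2, 21.8, 29.7 and 24.5 FPKM in HFWT and 25.8, 20.8, 20.6, 20.9 and 22.8 in HFKO (log2FC −0.55 ± 0.36), so the HFKO livers were nearly alike while HFWT replicate 1 was over 2 times the next HFWT liver. Xbp1 was the exception in sign, at 62.4, 58.2, 52.4, 61.0 and 58.9 FPKM in HFWT and 63.8, 59.7, 58.5, 60.2 and 58.9 in HFKO, a log2FC of 0.04 ± 0.14. All 10 livers lay between 52.4 and 63.8 FPKM.

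The remaining 5 genes had log2FC of −0.27 (Calr) to −0.43 (Dnajb9) on CDAHFD. Pdia4 was 89.5 ± 21.7 FPKM (SD, n = 5) in HFWT and 69.9 ± 4.63 in HFKO, Hyou1 29.7 ± 14.3 and 22.3 ± 4.23, and Manf 32.1 ± 13.0 and 23.2 ± 3.31. Dnajb9 was 38.5 ± 11.6 and 27.9 ± 4.31 FPKM, and Calr 198 ± 42.5 and 162 ± 16.2. For each of these 5 genes the HFKO mean lay within 1 SD of the HFWT mean. Relative to the median of all genes tested, which was −0.10, the differences of the 10 genes ran from −0.60 (Creld2) to 0.14 (Xbp1). Without HFWT replicate 1 the median of the 10 genes moved from −0.35 to −0.19.

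**Figure D3:**
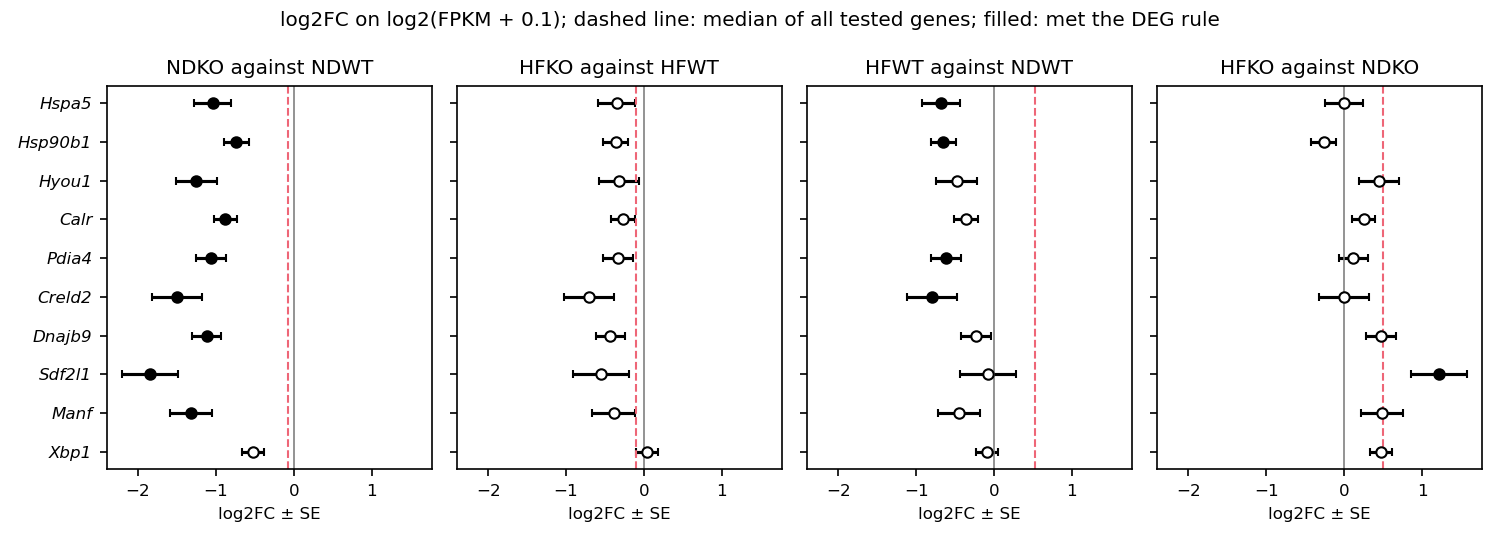
Log2FC with its SE for each described gene in the 4 comparisons, on log2(FPKM + 0.1). The dashed line is the median of all genes tested (−0.07, −0.10, 0.53 and 0.50 from left to right), and filled points met the DEG rule. The 10 points lie left of the median line in NDKO against NDWT and in HFWT against NDWT.

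The interaction, which is the genotype difference on CDAHFD minus its value on control chow, was positive for all 10 genes, from 0.38 ± 0.23 (Hsp90b1) to 1.30 ± 0.52 (Sdf2l1), with a median of 0.72 against −0.03 over all genes tested. In these values the gap between the labels was thus narrower on CDAHFD. By limma 0 of the 10 met the DEG rule for the interaction, where 0.337% of all genes tested were called positive and 0.310% negative. Called or not, 54.7% of all genes tested had a negative interaction. Hyou1 (0.93 ± 0.37), Manf (0.94 ± 0.38) and Creld2 (0.80 ± 0.46) followed Sdf2l1. Xbp1 had 0.56 ± 0.20.

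The diet comparisons use the same libraries as the genotype comparisons, and the gap between the 2 diet effects is the interaction given above. In libraries labelled WT all 10 genes were lower on CDAHFD, by log2FC of −0.08 ± 0.36 (Sdf2l1) to −0.80 ± 0.32 (Creld2), although the groups overlapped for all 10 (HFWT lay entirely below NDWT for 5.70% of all genes tested) and 2 genes changed sign with 1 mouse left out. Xbp1 stood at 0.10 instead of −0.09 without NDWT replicate 2, and Sdf2l1 at 0.19, 0.06 and 0.02 instead of −0.08 without NDWT replicate 3, HFWT replicate 3 and HFWT replicate 5. At the same time most genes of the table shifted upward, with 18.5% of all genes tested negative and a median log2FC of 0.53. Relative to it, the 10 genes lay at −0.62 (Sdf2l1 and Xbp1) to −1.33 (Creld2). The DEG rule was met by 4 genes, each lower (Hspa5, Hsp90b1, Pdia4 and Creld2), where 4.62% of all genes tested were called lower and 44.1% higher. NDWT replicate 3 decided this count, since 0 of the 10 met the rule without it, and 6 did without HFWT replicate 1. Under median of ratios scaling, which moves the median of all genes to 0.01, 9 genes met the rule, and under quantile normalization 4 did. Over all genes tested the calls went from 6412 higher and 671 lower to 3351 and 2145, and to 2514 and 2562.

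Hspa5 in these groups averaged 394 ± 149 FPKM (SD, n = 5) in NDWT and 246 ± 94.0 in HFWT, and the corresponding means of Hsp90b1 were 184 ± 60.6 and 115 ± 21.5. Creld2 averaged 64.3 ± 36.5 and 37.1 ± 19.1 FPKM, and Pdia4 141 ± 53.4 and 89.5 ± 21.7. Sdf2l1 had nearly equal means of 37.9 ± 20.8 and 35.7 ± 20.4 FPKM, and Xbp1 of 64.9 ± 22.8 and 58.6 ± 3.84.

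In libraries labelled TSP-1 null 8 of the 10 genes had a log2FC at or above 0.00 on CDAHFD, and the median of the 10 was 0.35 against 0.50 over all genes tested. A negative log2FC was found for 17.7% of all genes tested in this comparison. Sdf2l1 had the largest difference, from 10.5 ± 5.33 FPKM (SD, n = 5) in NDKO to 22.2 ± 2.22 in HFKO, a log2FC of 1.22 ± 0.36. It alone met the DEG rule, where 41.9% of all genes tested were called higher and 4.00% lower, and it lost the call under median of ratios scaling and quantile normalization. HFKO lay entirely above NDKO for Sdf2l1, Dnajb9 and Xbp1, as was the case for 52.7% of all genes tested. Dnajb9 was 20.2 ± 3.37 FPKM in NDKO and 27.9 ± 4.31 in HFKO, and Xbp1 43.6 ± 4.44 and 60.2 ± 2.11, both with a log2FC of 0.47.

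Hspa5 (190 ± 52.1 FPKM in NDKO, 185 ± 22.2 in HFKO) and Creld2 (21.5 ± 6.74 and 20.9 ± 4.13) had log2FC of 0.00 ± 0.24 and −0.00 ± 0.32, and Hsp90b1 was lower, at −0.26 ± 0.16. Measured against the general upward shift, these 3 genes lay at −0.49, −0.50 and −0.76, whereas Dnajb9, Xbp1 (both −0.03) and Manf (−0.01) followed the median of the table. Under median of ratios scaling Hsp90b1 met the rule as lower, and the log2FC of Hyou1, Calr, Pdia4, Dnajb9, Manf and Xbp1 turned negative, from −0.03 (Manf) to −0.40 (Pdia4).

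Ordered by group mean, NDWT was highest for all 10 genes and HFWT second for all but Xbp1. NDKO was lowest for 7 genes and HFKO for Hspa5, Hsp90b1 and Creld2. Most neighbours in this order overlapped in their livers. The exception was the last step of Dnajb9, Sdf2l1 and Xbp1, where NDKO lay below HFKO or HFWT without overlap. The spread within groups also differed. In HFKO the SD was 3.50% (Xbp1) to 19.8% (Creld2) of the mean, and for each of the 10 genes that was the smallest share of the 4 groups. In NDWT it was 19% (Calr) to 56.7% (Creld2) and in HFWT 6.55% (Xbp1) to 57.0% (Sdf2l1). No test was made of the spread.

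The described genes varied together from mouse to mouse. NDWT replicate 3 was the highest liver of its group for 9 of the 10 genes, all but Xbp1, HFWT replicate 1 for all 10 and HFKO replicate 1 for 9. NDKO replicate 1 was the lowest of its group for all 10 genes and NDWT replicate 1 for 7. The deviation of a liver from its group mean, as a median over the 10 genes on the log2 scale, was 0.80 in NDWT replicate 3, 0.70 in HFWT replicate 1 and −0.46 in NDKO replicate 1.

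**Figure D4:**
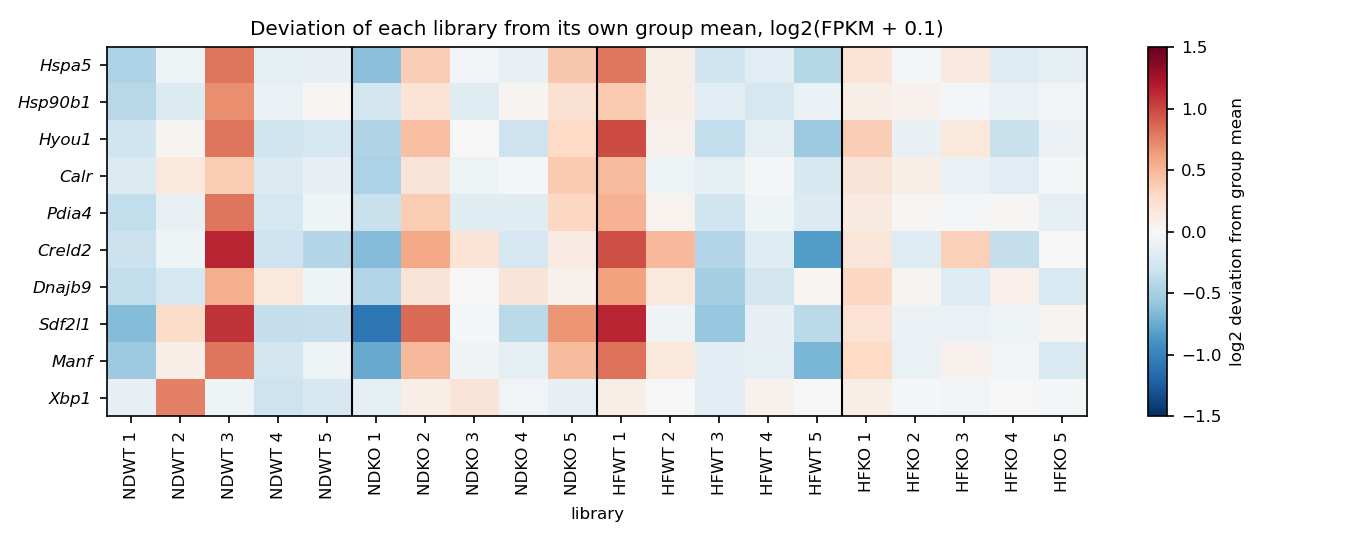
Deviation of each library from its own group mean on log2(FPKM + 0.1), in red above and in blue below the mean, for the 10 described genes (rows) and 20 libraries (columns, 5 per group between black lines). The columns of NDWT 3 and HFWT 1 are red and that of NDKO 1 is blue for nearly every gene, while the row of Xbp1 is pale except for NDWT 2.

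Over the 20 libraries, the within-group deviations of 2 described genes correlated with a median Pearson r of 0.89 among the 36 pairs without Xbp1 (0.66 to 0.97). Xbp1 stood apart, with a median r of 0.21 to the other 9 genes and −0.08 with Hsp90b1. Without NDWT replicate 3 and HFWT replicate 1, a choice made after seeing the data, the median over the 36 pairs was 0.79 (0.32 to 0.95). Both values in a pair come from the same library and share its depth, so they are given as a description.

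In marker genes these libraries differed too. NDWT replicate 3 had the highest summed level of its group for hepatocyte markers (42437 FPKM, group range 35297 to 42437) and for plasma cell markers (43.0, range 10.1 to 43.0), and also for macrophage, stellate cell and endothelial markers. HFWT replicate 1 had the lowest hepatocyte sum of its group (26030 FPKM, range 26030 to 38003) and the highest stellate cell and fibroblast sum (556, range 291 to 556), with a plasma cell sum of 49.4. The part of these differences in the values above was not tested.

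Of all other tested genes, those whose deviations were most like the mean deviation of the 10 genes were Dnajb11 (Pearson r = 0.97 over 20 libraries), Pdia3 (0.95), Derl3 (0.93), Sel1l (0.92), Ero1lb (0.92), Gmppb (0.90), Tfg (0.90), Syvn1 (0.89), Osbp (0.88) and Pdia6 (0.88). Without NDWT replicate 3 and HFWT replicate 1 their r was 0.94, 0.94, 0.86, 0.86, 0.79, 0.75, 0.75, 0.74, 0.73 and 0.83. Dnajb11 encodes another J protein of BiP, Pdia3 and Pdia6 are disulfide isomerases, and Derl3, Sel1l and Syvn1 belong to ER-associated degradation. Of these 10 genes 7, and of the nearest 20 genes 13, stood in the pathway lists below, which hold 131 of the 14514 genes ranked.

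The other genes of the pathway were taken from 6 lists of ER and UPR function that leave out the 10 genes described above. Of their 135 genes 134 were in the table and 131 passed the filter on low values, which keeps genes above 0.5 FPKM in at least 5 libraries. For these genes limma was used as a test, with FDR adjusted over all 14524 genes. The lists were chosen with earlier results of these same libraries known. Their counts are therefore not independent of those results. Between NDKO and NDWT 15 of 131 (11.5%) were called lower and 2 (1.53%) higher, where 3.03% and 1.74% of all genes tested were. An unadjusted p under 0.05 was found for 72 (55%), 67 of them negative, and for 27.3% of all genes tested. The median log2FC of the lists was −0.20 against −0.07 over all genes tested.

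For each list below, the shares over all genes tested were 3.03% called lower and 1.74% called higher. Of 29 other ER chaperones and folding enzymes 6 (20.7%) were lower in NDKO and 0 higher. Canx, the membrane-bound relative of calreticulin, fell from 71.5 ± 7.74 to 46.0 ± 6.45 FPKM (SD, n = 5, log2FC −0.64 ± 0.09, FDR = 2.44e-04), but without NDKO replicate 1 its log2FC of −0.57 was short of the fold limit. Pdia3, the isomerase that works with calnexin and calreticulin, fell from 141 ± 28.8 to 75.2 ± 14.4 FPKM (log2FC −0.90 ± 0.14, FDR = 4.49e-04). Pdia6 fell from 62.6 ± 13.9 to 32.4 ± 9.54 FPKM (log2FC −0.98 ± 0.18), Ero1lb, an oxidase that recharges disulfide isomerases, from 19.9 ± 5.70 to 10.4 ± 2.17 (log2FC −0.92 ± 0.19) and Dnajb11 from 32.8 ± 7.56 to 19.7 ± 4.26 (log2FC −0.73 ± 0.16). The sixth was Uggt1, a sensor of glycoprotein folding (8.02 ± 1.40 to 5.29 ± 0.970 FPKM), named after its values were seen, which was short of the fold limit without NDWT replicate 3 (−0.50) or NDKO replicate 1 (−0.54), 3 (−0.55) or 4 (−0.57).

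Of 25 genes of ER-associated degradation, which removes misfolded proteins, 3 were lower and 0 higher. Derl3, a channel subunit, fell from 7.46 ± 8.77 to 0.797 ± 0.644 FPKM (log2FC −2.86 ± 0.62, FDR = 0.00504), with 2.66 to 23.0 FPKM in NDWT and 0.109 to 1.78 in NDKO. Its partners of the ubiquitin ligase complex, Sel1l (30.1 ± 8.27 to 16.3 ± 3.57 FPKM, log2FC −0.88 ± 0.16, FDR = 0.00186) and Syvn1 (35.6 ± 15.3 to 15.1 ± 2.17, log2FC −1.16 ± 0.28, FDR = 0.0101), fell as well. Of 22 genes of translocation and signal peptide processing 2 were lower, Sec61b (log2FC −0.64 ± 0.14, FDR = 0.00502) and Srprb (−0.60 ± 0.16, FDR = 0.0164). Both depended on single mice. Without NDWT replicate 3 the log2FC was −0.57 for Sec61b and −0.49 for Srprb, under the fold limit, which Sec61b also missed without NDWT replicate 2 (−0.57). Srprb was also lost without NDWT replicate 2 (−0.57) or NDKO replicates 1 (−0.54), 4 (−0.58) or 5 (−0.55). Of 27 genes of ER to Golgi transport 0 were called by limma. An unadjusted p under 0.05 was found for 14 (51.9%), all of them negative, against 27.3% of all genes tested.

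Of 14 UPR sensors and regulators 2 were lower, the PERK gene Eif2ak3 (3.89 ± 1.11 to 2.24 ± 0.194 FPKM, log2FC −0.74 ± 0.15, FDR = 0.00404) and Creb3l2 (6.40 ± 2.07 to 2.86 ± 0.514, log2FC −1.09 ± 0.22, FDR = 0.00290), a transcription factor of the ATF6 type. The IRE1 gene Ern1 had a log2FC of −0.37 ± 0.12 (FDR = 0.0570) and Atf6 of −0.34 ± 0.10 (FDR = 0.0264), both short of the rule. Of 14 genes of the PERK and ATF4 branch 2 were lower and 2 higher. Ddit3, the gene of CHOP, was lower (6.37 ± 1.64 to 3.59 ± 0.646 FPKM, log2FC −0.79 ± 0.17, FDR = 0.00602) and so was Atf3 (log2FC −0.84 ± 0.22, FDR = 0.0172, but −0.76 and FDR = 0.0501 without NDWT replicate 3). Atf5 (log2FC 0.61 ± 0.14, FDR = 0.00696) and Ddit4 (1.07 ± 0.32, FDR = 0.0322) were higher. Atf5 was short of the fold limit without NDWT replicate 3 (0.56) or 5 (0.57) or NDKO replicate 1 (0.53) or 2 (0.58), and Ddit4 was lost without NDWT replicate 2, 4 or 5 or NDKO replicate 1 or 5, with FDRs of 0.0551 to 0.0930. Atf4 itself had −0.25 ± 0.13 (FDR = 0.214).

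**Figure D5:**
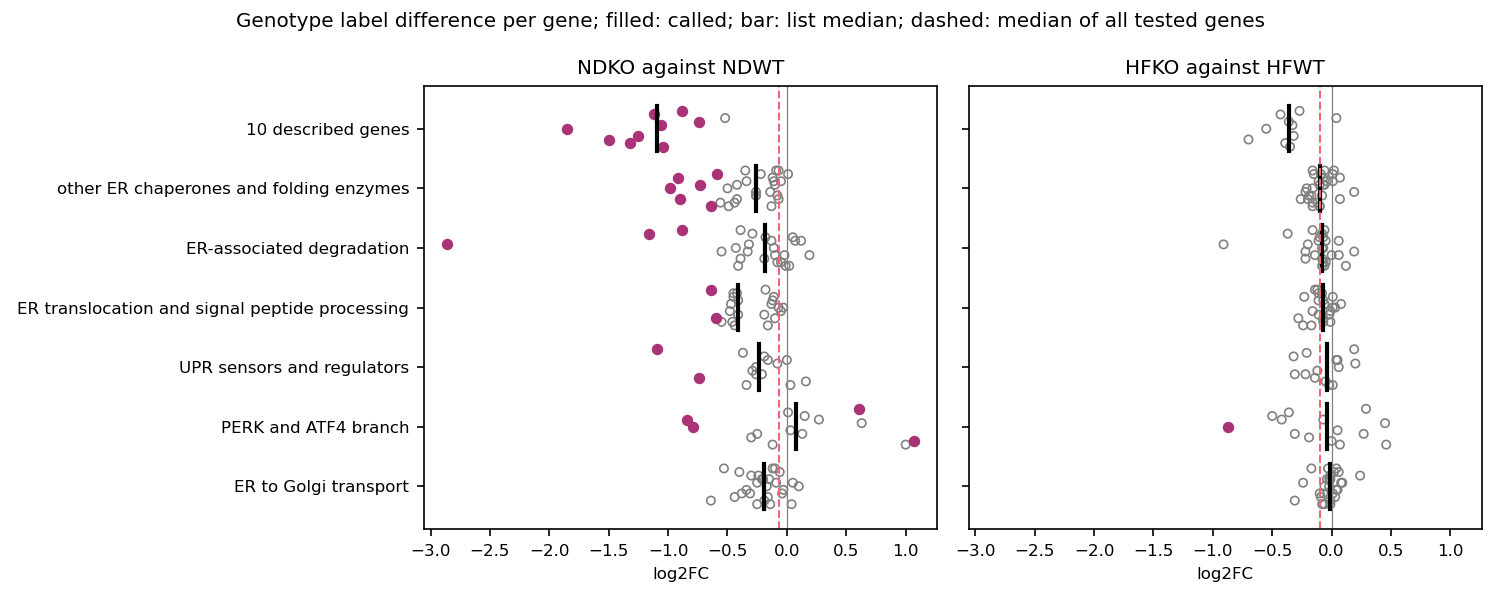
Log2FC of NDKO against NDWT (left) and of HFKO against HFWT (right) for the 10 described genes and the genes of 6 pathway lists, with 1 point per gene. Filled points met the DEG rule, black bars are list medians and the red dashed line is the median of all genes tested (−0.07 and −0.10). On the left 9 described genes and 17 list genes are filled, and on the right 1 list gene, Ddit3.

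On CDAHFD 1 of 131 list genes (0.763%) was called between the labels, and it was lower, as were 0.330% of all genes tested. Ddit3 fell from 11.9 ± 2.66 FPKM in HFWT to 6.37 ± 0.924 in HFKO (SD, n = 5, log2FC −0.87 ± 0.17, FDR = 0.0184). It lost the call without HFWT replicate 2 (log2FC −0.77, FDR = 0.0561) or HFKO replicate 4 (−0.78, FDR = 0.0664). The interaction called 0 of 131 by limma, with 38 (29.0%) at an unadjusted p under 0.05, 37 of them positive, where 15.1% of all genes tested had such a p. Creb3l2 came closest (1.28 ± 0.31, FDR = 0.0507), and without HFWT replicate 1 the interaction called 3 list genes.

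The list genes were tested for diet in the same way. In libraries labelled WT 25 of 131 list genes (19.1%) were called higher on CDAHFD and 6 (4.58%) lower, where 44.1% and 4.62% of all genes tested were. In libraries labelled TSP-1 null 39 (29.8%) were called higher and 1 (0.763%) lower, where the shares of all genes tested were 41.9% and 4.00%. The lists had medians of 0.28 and 0.42 against 0.53 and 0.50 over all genes tested. Among the sensors, Eif2ak3 rose in WT (log2FC 1.07 ± 0.15, FDR = 4.21e-06) and in mice labelled TSP-1 null (1.67 ± 0.15, FDR = 1.41e-08). Ern1 (0.30 ± 0.12 and 0.46 ± 0.12) and Atf6 (0.25 ± 0.10 and 0.57 ± 0.10) were short of the fold limit in both genotypes. Of the PERK and ATF4 branch 6 of 14 genes (42.9%) rose in each genotype, a share near that of all genes tested, led by Atf3 (log2FC 4.79 ± 0.22 and 5.22 ± 0.22), Asns (3.75 ± 0.37 and 3.21 ± 0.37) and Nupr1 (3.32 ± 0.24 and 2.68 ± 0.24), and Atf5 fell in mice labelled TSP-1 null (−0.71 ± 0.14). Dnajc10, a disulfide reductase with a J domain, rose (1.51 ± 0.10 and 1.58 ± 0.10).

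In libraries labelled WT the genes lowered on CDAHFD included Creb3l3, a liver transcription factor of the ATF6 type (201 ± 17.9 to 113 ± 5.77 FPKM, SD, n = 5, log2FC −0.83 ± 0.08, FDR = 1.61e-08), Sar1b, a coat GTPase needed for lipoprotein export (−0.74 ± 0.09), Sel1l (−0.64 ± 0.16) and Herpud1 (−0.64 ± 0.16). Sel1l was short of the fold limit without NDWT replicate 3 (−0.49), and Herpud1 without HFWT replicate 3 (−0.58) or 5 (−0.54). Under median of ratios scaling 8 list genes were higher and 28 lower among WT mice, while the knockouts had 13 higher and 10 lower.

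Among genes with an ERSE in their promoter window, 33 were not among the described 10, and 26 of these were in the table and 14 passed the filter. Of the 14, 5 were lower in NDKO, where 3.03% of all genes tested were, and 0 higher, all of them named above as list genes (Canx, Pdia6, Ero1lb, Derl3 and Syvn1), and the median log2FC of the 14 was −0.40 against −0.07 over all genes tested. Since the search was chosen after these values were seen, the count is not independent of them. Their elements, shown with 5 bases on each side and in the same notation, are set beside that of Dnajc3, a list gene with the element that was not called (log2FC −0.50 ± 0.12, FDR = 0.0107).
Canx: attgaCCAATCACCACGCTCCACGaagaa
Pdia6: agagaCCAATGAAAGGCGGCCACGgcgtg
Ero1lb: ggcctCGTGGTCCCGCCTCATTGGccgcc
Derl3: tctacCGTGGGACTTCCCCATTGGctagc
Syvn1: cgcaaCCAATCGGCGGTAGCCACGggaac
Dnajc3: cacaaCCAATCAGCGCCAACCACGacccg
These stretches lie at chr11:50325795-50325823 (Canx, minus strand), chr12:17266486-17266514 (Pdia6, plus), chr13:12565677-12565705 (Ero1lb, plus), chr10:75893237-75893265 (Derl3, plus), chr19:6046527-6046555 (Syvn1, plus) and chr14:118937822-118937850 (Dnajc3, plus), all between annotated genes. On CDAHFD 0 of the 14 were called between the labels by limma, with 2 at an unadjusted p under 0.05, where 17.2% of all genes tested had such a p. The element of Creld2 also lies in the window of its neighbour Alg12, which had a log2FC of −0.56 between NDKO and NDWT and was not called.

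Plasma cells and, where pancreas adheres to the liver, acinar cells are also rich in ER chaperones. Of 7 tested plasma cell markers 0 were called between NDKO and NDWT by limma. An unadjusted p under 0.05 was found for 1 (14.3%), against 27.3% of all genes tested. The summed level of 9 plasma cell markers was 10.1 to 43.0 FPKM in NDWT and 19.2 to 54.3 in NDKO, led by Igkc. On CDAHFD the sum was 35.5 to 117 FPKM in HFWT and 44.8 to 73.8 in HFKO. Of 12 pancreatic acinar markers Amy2a5, Cela3b and Pnlip were at 0 in all 20 libraries, and the sum of 9.96 to 14.9 FPKM in NDWT and 7.38 to 15.7 in NDKO was nearly all Cela1.

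Hepatocyte markers summed to 35297 to 42437 FPKM in NDWT and 39645 to 47156 in NDKO, with 3 of 9 called higher in NDKO and 0 lower. The 3 were Cps1, Arg1 and Pck1, enzymes of the urea cycle and of gluconeogenesis, named after their values were seen (log2FC 1.10 ± 0.18, 0.83 ± 0.16 and 0.82 ± 0.19). Over all genes tested 1.74% were called higher and 3.03% lower, which also applies to the marker lists that follow. Of the 9 hepatocyte log2FC 7 were positive and 2 negative (Ttr −0.11 ± 0.15 and Serpina1c −0.10 ± 0.10). Alb had 0.15 ± 0.14 (limma FDR = 0.528). Macrophage sums were 200 to 271 FPKM in NDWT and 176 to 307 in NDKO. Of 10 macrophage markers 1 was called, Trem2, which was higher (means of 0.183 and 0.400 FPKM). Of 10 stellate markers 1 was called, Acta2, which was lower (means of 0.679 and 0.300 FPKM). Both stood at low levels, and in each list 4 log2FC were positive and 6 negative. Stellate cell and fibroblast sums were 63.3 FPKM or less in NDWT and 63.5 to 69.7 in NDKO, endothelial sums 56.3 to 60.2 and 45.6 to 56.1, and cholangiocyte sums 15.2 to 18.0 and 12.4 to 15.6. The stellate sums were mostly Dcn (means of 42.8 and 51.7 FPKM) and the cholangiocyte sums mostly Spp1 (13.6 and 10.8). Of 5 tested cholangiocyte markers 2 log2FC were positive and 3 negative. By mean over all libraries, Lyz2 led the macrophage list and Clec4g the endothelial list. Between diets the shifts were larger, with stellate sums of 291 to 556 FPKM in HFWT and 291 to 401 in HFKO and macrophage sums of 1228 to 1678 and 771 to 1701. Their part in the levels of the described genes was not tested.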

How the data were processed

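Poly(A) RNA of 20 livers was sequenced on an Illumina HiSeq instrument from directional libraries. The deposited FPKM values were made by the authors with QuickRNASeq, without further normalization between libraries. The submitters' processing notes name STAR 2.5.2, featureCounts and Subread 1.5.1 and a human genome, but the coordinates are of mouse GRCm38: 99.8% of the 37607 identifiers that GENCODE M21 also holds lie over its gene. The strand setting of counting is not given in the sources used here. FPKM multiplied by length and by a library total gave whole fragments (within 0.05 plus rounding) for at least 99.96% of values checked, with totals of 15641548 to 23276329 (median 18950485). The libraries carry no molecular identifiers, so these depths bear on counting error only.

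Groups followed the sample labels. limma 3.58.1 in R 4.3.3 was fitted to log2(FPKM + 0.1) with a mean per group over all 20 libraries (eBayes with trend), for 14524 genes above 0.5 FPKM in at least 5 libraries. Called genes had a two-sided Benjamini-Hochberg FDR under 0.05 over all genes tested and an absolute log2FC above 0.58. Replicates are separate mice. The 10 genes and the pathway lists were chosen with earlier results of these data known, so the 10 genes carry no test. Other genes were drawn by rule: at most 4 called genes per list and comparison by FDR, Ern1, Eif2ak3, Atf6, Atf4 and Ddit3, the 10 genes most like the described ones, and the highest gene of each marker list. The text names only some of the list genes that this rule drew. Canx and the other genes with an ERSE, Alg12, Dnajc3, Uggt1, Trem2, Acta2, Cps1, Arg1 and Pck1 were singled out in the text after their values were seen. Sequence shared by genes was counted in stretches of 31 bases. The code was tested on simulated data. Alternatives were pseudocounts of 0.01 and 1, no filter or FPKM above 1, quantile normalization, scaling by median of ratios, dropping the fold limit, fitting only the groups compared, blocking on the replicate number and leaving out each mouse in turn. The fits used the deposited FPKM, and DESeq2 and edgeR were not run on the fragments recovered from them. Tables were handled with numpy 2.4.6 and pandas 2.3.3 and plots drawn with matplotlib 3.10.9, in Python 3.11.15.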

Additional observations from a re-analysis of the deposited data

Results flagged for a closer look

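Within groups of 5 livers, single values lay farther from the rest than Dixon's 95% limit of 0.71 allows in 8 of 40 groups checked. That limit flags about 1 in 20 groups when values are normally distributed. It was applied to FPKM, which need not be so distributed, and not to the log2 scale of the fits. No excess over chance is therefore read from the 8. In NDWT replicate 3 these were Hspa5 at 655 FPKM (next highest 358), Pdia4 at 235 (129), Creld2 at 129 (55.7) and Hyou1 at 67.5 (39.8). In HFWT replicate 1 they were Calr at 272 FPKM (191), Sdf2l1 at 71.5 (31.2) and Hyou1 at 54.4 (28.8). Xbp1 reached 105 FPKM in NDWT replicate 2 (59.6), a liver in which the other 9 genes lay inside the range of their group. Each flagged value was the highest of its group. The genes vary together, so the 8 values are not independent of each other.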

How the results depend on the processing

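The counts of called list genes rested most on scaling and on the fold limit. CDAHFD in WT gave 25 higher and 6 lower, and 8 and 28 under median of ratios scaling, 10 and 14 under quantile normalization, 76 and 16 without a fold limit, and 23 to 31 and 3 (without HFWT replicate 5) to 9 (without HFWT replicate 1) with 1 mouse left out. CDAHFD in TSP-1 null mice gave 39 and 1, then 13 and 10, 17 and 4, 92 and 6, and 39 to 42 and 1 to 3. NDKO against NDWT gave 2 higher and 15 lower. The 2 became 1 with a pseudocount of 1, without a filter or with only the groups compared, and 0 to 3 with 1 mouse left out. The 15 became 52 without a fold limit and 11 (without NDWT replicate 3) to 18 with 1 mouse left out. The 1 gene lower on CDAHFD became 0 to 1. The interaction went from 0 to 1 positive gene above 1 FPKM, under median of ratios scaling and under quantile normalization, and to 0 to 3 with 1 mouse left out (3 without HFWT replicate 1). Both scalings centre the changes near 0, which lowers the diet counts of higher genes by construction, and the other causes were not tested. Under quantile normalization the log2FC of Dnajc1 in WT turned to −0.07 and that of Ero1l in TSP-1 null mice to −0.00.

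Same-numbered mice of different groups did not deviate together (r −0.133 to 0.0812, 0 of 30 pairs over 0.1), so the numbers do not pair the mice. With a replicate block the lists gave 25 higher and 6 lower, 39 and 1, 3 and 15, 0 and 1, and 0 and 0, in the order of the comparisons above, and the 10 described genes gave the same counts as without it. Of 1390 alternative values of the 10 genes 21 moved by at least 1 SD and 10 turned in sign, none of them a value that met the DEG rule. Of the 10, 6 were the diet values in TSP-1 null mice under median of ratios scaling and 4 those of Sdf2l1 and Xbp1 in WT with 1 mouse left out. Of 6192 values for the list genes drawn by rule, named here or not, 98 lost and 84 gained a call, and 2 called values turned in sign.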
